A study of Mus musculus with 3 samples.

Results

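Platelets stop bleeding with surface glycoproteins, granule proteins and a cytoskeleton laid down by megakaryocytes, and 10 genes of that kind were followed here: the von Willebrand factor receptor genes Gp1ba, Gp1bb, Gp5 and Gp9, the collagen receptor gene Gp6, the alpha granule genes Treml1 and Mmrn1, the tubulin gene Tubb1 and the signalling and secretion genes Plek and Rab27b. They were chosen by name among the non-control probes of a mouse expression array, where the 10 genes had 13 of 55681 probes. The cells were VE-Cadherin+/CD45+ cells of the mouse yolk sac, isolated by flow cytometry for an endothelial adhesion protein together with a protein found on blood cells. The Tie-2-Etv2 group had 2 samples, from embryos in which an Etv2 transgene was turned on by a Tie-2 Cre transgene, and the control group had 1 sample. The control came from E10.5 embryos, an age that the labels give for the control only. Strain was labelled as mixed (B6/CBA and others) in both groups. Tie-2 Cre acts in endothelial cells and in the blood cells that descend from them, so the transgene is not limited to megakaryocytes. The number of embryos pooled per sample and the control's transgene status beyond the word control are not given in the labels.

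Megakaryocytes arise in the yolk sac from early blood progenitors, and the transcription factors GATA1, FLI1, RUNX1 and NFE2 are known to drive their genes. On the platelet surface the products of Gp1ba, Gp1bb and Gp9 assemble into a receptor that binds von Willebrand factor, with the product of Gp5 attached to it, while glycoprotein VI binds collagen and signals through the Fc receptor gamma chain. Etv2 is an ETS factor of early blood and vessel development. The comparison asks how these genes stood in sorted VE-Cadherin+/CD45+ yolk sac cells, which may be of several types, when Etv2 was kept on.

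Promoters are shown for 4 of the genes, because Mmrn1 and Gp9 were at least 2-fold higher on both Tie-2-Etv2 arrays, Gp6 was well above background on the control array alone, and Gp1ba, the ligand-binding subunit, shares the receptor with Gp9 and did not follow it. The sequences are RefSeq windows on build GRCm38.p6, from 250 bases before to 50 after the annotated start, 5′ to 3′ on the gene's strand. Capitals mark motif matches on either strand. The letters of the GATA motif were AGATAA with its close form AGATAG, plus a version in which the leading A is replaced, which reads TGATAA or, with a final G, TGATAG. ETS matches read AGGAAG, while a leading C was accepted too, as in CGGAAG. The RUNX motif was searched as TGTGGT and the NFE2 motif as TGAGTCA. None of the marked matches in these 4 windows overlap.
Mmrn1, plus strand of chr6:60944067-60944366: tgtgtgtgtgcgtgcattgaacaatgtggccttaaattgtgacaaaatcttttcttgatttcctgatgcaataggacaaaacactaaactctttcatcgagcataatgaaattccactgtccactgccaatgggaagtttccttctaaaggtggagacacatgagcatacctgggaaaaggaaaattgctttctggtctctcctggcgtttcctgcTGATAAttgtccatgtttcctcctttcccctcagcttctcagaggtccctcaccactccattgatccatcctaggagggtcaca
Gp9, plus strand of chr6:87777820-87778119: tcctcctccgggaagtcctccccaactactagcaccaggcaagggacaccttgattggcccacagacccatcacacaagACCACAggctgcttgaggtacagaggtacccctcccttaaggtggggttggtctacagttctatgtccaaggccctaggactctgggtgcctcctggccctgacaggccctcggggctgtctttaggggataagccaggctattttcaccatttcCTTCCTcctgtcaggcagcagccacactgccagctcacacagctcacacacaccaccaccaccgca
Gp6, minus strand of chr7:4397695-4397994: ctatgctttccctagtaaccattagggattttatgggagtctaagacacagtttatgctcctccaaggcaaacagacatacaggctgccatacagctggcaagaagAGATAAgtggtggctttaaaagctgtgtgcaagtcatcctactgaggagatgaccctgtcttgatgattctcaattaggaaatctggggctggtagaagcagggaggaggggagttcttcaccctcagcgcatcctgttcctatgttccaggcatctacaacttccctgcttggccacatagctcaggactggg
Gp1ba, plus strand of chr11:70638872-70639171: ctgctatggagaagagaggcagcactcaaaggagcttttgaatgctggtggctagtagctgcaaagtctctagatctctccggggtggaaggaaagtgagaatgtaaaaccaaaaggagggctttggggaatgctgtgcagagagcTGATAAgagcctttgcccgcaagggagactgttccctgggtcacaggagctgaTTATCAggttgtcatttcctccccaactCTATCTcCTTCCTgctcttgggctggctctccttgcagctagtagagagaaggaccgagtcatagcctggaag

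The Gp1ba window held 3 GATA matches and 1 ETS match, the Mmrn1 window and the Gp6 window 1 GATA match each, and the Gp9 window 1 ETS and 1 RUNX match. The ETS match of Gp9 and that of Gp1ba both began 16 bases before the start. Promoters of 9 of the 10 genes were searched, and Rab27b, on chromosome 18, was left out. A GATA match was present in 5 of the 9 and an ETS match in 5, while over all 32851 promoter windows of 300 bases GATA matches were found in 29.8% and ETS matches in 46.5%. A RUNX match was present in 1 of the 9 (16.8% of all windows) and an NFE2 match in 0 (5.2% of all windows). A match is a run of letters in the window and no measurement of binding. Among the 4 genes of the von Willebrand factor receptor, Gp9 had an ETS match and no GATA match, while Gp1ba, Gp1bb and Gp5 each held both. Tubb1, which was lower on both Tie-2-Etv2 arrays, likewise had an ETS match and no GATA match. Mmrn1 and Gp6 had a GATA match and no ETS match. A link between matches and differences was not tested.

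Each sample had a 1-colour array, labelled with the dye Cy3, and the 3 arrays shared 1 slide and 1 scan. Per array, 43.5% to 48.5% of probes were well above background, the detection call of the extraction software. The Tie-2-Etv2 replicate 1 array was dimmer, with a 75th percentile of detected probes of 1199 intensity units, against 2092 on replicate 2 and 2073 on the control array. Levels below are therefore log2 intensity minus that percentile, and a difference is the Tie-2-Etv2 level minus the control level. The number of arrays limits the precision, and with 1 control array the spread of the control is not known. In the check of the labels, Etv2 was 21.5-fold higher on replicate 1 and 9.3-fold higher on replicate 2 than on the control array. The difference of Cdh5, the gene of VE-cadherin, was 3.53 and that of Ptprc, the gene of CD45, -0.46, with both genes well above background on all 3 arrays. Since the labels do not say if the samples of the Tie-2-Etv2 group are of different litters, p-values here gauge the spread between these samples alone, and that spread may be technical.

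Among the 10 genes, Mmrn1 and Gp9 were at least 2-fold higher on both Tie-2-Etv2 arrays. Gp6 was at least 2-fold lower on both by its measured values, which were not well above background there, and its bound was 1.91-fold. Over all 19580 tested genes 3.92% were 2-fold higher on both arrays and 6.64% were 2-fold lower. Rab27b and Treml1 were also higher on both arrays, by less than 2-fold on at least 1 of them, which makes 4 of 10 genes higher on both, against 42.5% of all tested genes. Gp1bb, Tubb1 and Plek were lower on both, which with Gp6 makes 4 of 10, against 30.9%. The control lay between the Tie-2-Etv2 arrays for Gp1ba and Gp5, 2 of 10, against 26.6% of all tested genes. The median difference over the 10 genes was -0.07, against 0.07 over all tested genes, and it was 0.74 over the 7 genes detected on all 3 arrays. All 10 had a tested probe, but Gp6, Gp5 and Tubb1 were tested only because the control array detected them. Of the 7 detected on all 3 arrays, 2 were at least 2-fold higher on both Tie-2-Etv2 arrays and 0 lower, against 2.91% and 3.44% of the 17228 genes detected on all 3 arrays. In limma's test with Benjamini-Hochberg adjustment over all probes 0 of the 10 genes passed an adjusted p of 0.05, as did 0.0% of all genes. Unadjusted, 4 of the 10 (Mmrn1, Gp9, Rab27b and Gp6) had a limma p under 0.05, against 10.8% of all genes, and that of Gp6 rests on Tie-2-Etv2 values below background. In bulk samples a change in the number of cells of a type and a change in RNA per cell cannot be told apart.

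**Figure D1:**
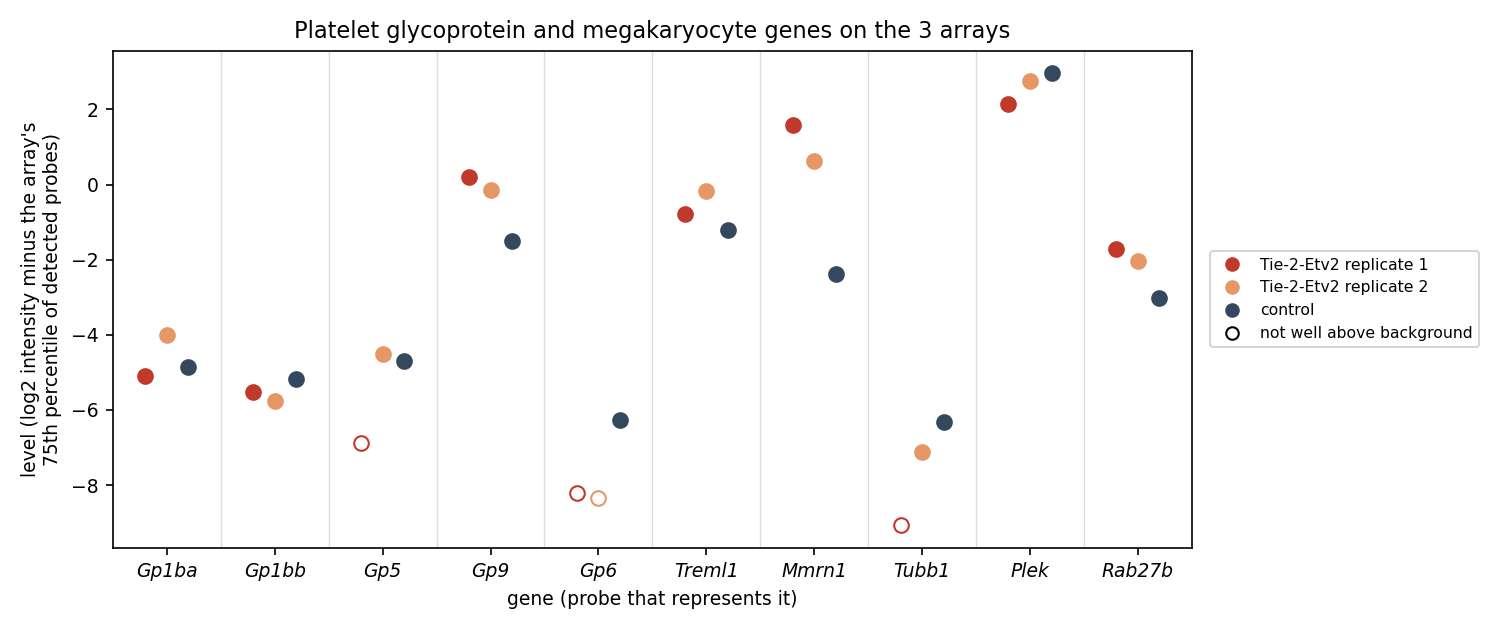
Level of each of the 10 genes (y axis, log2 intensity minus the array's 75th percentile of detected probes) on Tie-2-Etv2 replicate 1, Tie-2-Etv2 replicate 2 and the control array, with open circles where the probe was not well above background. Mmrn1 stands at 1.59 and 0.62 on the Tie-2-Etv2 arrays, above -2.38 on the control array, whereas Gp5 and Tubb1 drop to open circles on replicate 1 and Gp6 on both. Heights of different genes are not comparable, since probes differ in sensitivity.

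The 4 genes of the von Willebrand factor receptor gave no common direction. Gp9, which encodes the small subunit needed to bring the receptor to the surface, had intensities of 1377 and 1890 on Tie-2-Etv2 replicates 1 and 2, against 733 on the control array (probe on chromosome 6, 87729650 to 87729709, mm9). Its level was 0.20 and -0.15 on the Tie-2-Etv2 arrays and -1.50 on the control array, so both arrays stood above the control. The difference of Gp9 was 1.53 ± 0.35 (SE), a 2.88-fold higher mean (3.25-fold on replicate 1 and 2.56-fold on replicate 2), and limma gave an adjusted p of 0.306. By the smaller of its 2 differences it ranked 419 among the 19580 tested genes.

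Gp1ba encodes the subunit that carries the binding site for von Willebrand factor, and its probe lies on chromosome 11, 70455461 to 70455520 (mm9). Its intensities were 35.2 and 131 on the Tie-2-Etv2 arrays, against 71.9 on the control array. The levels were -5.09 and -4.00 in Tie-2-Etv2 cells and -4.85 in control cells, which puts the control between them. The difference of 0.31 ± 0.57 (SE) was smaller than its error (limma, adjusted p = 0.943).

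Gp5 encodes the subunit that thrombin cleaves from the platelet surface. Its probe (chromosome 16, 30308347 to 30308406, mm9) read 10.1 on Tie-2-Etv2 replicate 1, where it was not well above background, and 92.2 on replicate 2, against 79.2 on the control array. The Tie-2-Etv2 arrays thus disagreed in direction, with a difference of 0.21 on replicate 2 and a level at least 4.34-fold lower than the control on replicate 1. In limma's test the mean difference of -0.99 ± 1.09 (SE) had an adjusted p of 0.902.

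Gp1bb encodes the subunit bound by disulphide bonds to the product of Gp1ba, and 1 of its 3 probes was well above background on any array. That probe is shown because it is rich in G and C (80.0%, against 55.0% in each of the other Gp1bb probes), and it was the only one of the 3 that gave a measurement.
Gp1bb probe, chr16:18621107-18621166 (mm9): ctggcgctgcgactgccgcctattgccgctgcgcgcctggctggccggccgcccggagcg
It read 26.1 and 38.6 on the Tie-2-Etv2 arrays, against 57.0 on the control array. These dim values were 2.47, 3.45 and 4.12 times the lowest detected intensity of their arrays. Levels were -5.52 and -5.76 in Tie-2-Etv2 cells and -5.19 in control cells, both arrays lying a little below the control. The difference was -0.46 ± 0.34 (SE), with limma's adjusted p at 0.795. It was 0.01 with normexp background correction, whose offset of 50 is large beside these intensities and draws differences toward 0. The other 2 probes, at 18621535 to 18621594 and 18621717 to 18621776 of the same chromosome, read 2.20 to 6.57 over the 3 arrays and stayed in the background. The direction of Gp1bb thus rests on 1 probe, and whether its signal comes from the Gp1bb transcript was not tested.

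Gp6, the collagen receptor gene, was detected on the control array alone. Its intensity was 4.06 and 6.43 on the Tie-2-Etv2 arrays, not well above background, and 27.1 on the control array, which is 1.96 times the lowest detected intensity there (probe on chromosome 7, 4320351 to 4320410, mm9). The measured levels averaged -8.28 in Tie-2-Etv2 cells and -6.26 in control cells. With dim values at the lowest detected level of their array, Gp6 was at least 1.91-fold lower in the Tie-2-Etv2 mean, a difference of -0.93 with limma's adjusted p at 0.593. The measured values gave a difference of -2.02 with limma's adjusted p at 0.236. The bound was 1.49-fold for replicate 1 and 2.44-fold for replicate 2. The difference was -0.07 with normexp background correction, whose offset of 50 exceeds these intensities and draws their differences toward 0.

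Treml1, which encodes a receptor stored in platelet alpha granules and brought to the surface on activation, gave intensities of 694 and 1852 on the Tie-2-Etv2 arrays, against 887 on the control array (chromosome 17, 48506365 to 48506424, mm9). After scaling, the levels were -0.79 and -0.18 in Tie-2-Etv2 cells and -1.22 in control cells. Both arrays were above the control, replicate 2 by 2.07-fold and replicate 1 by 1.35-fold. The difference was 0.74 ± 0.42 (SE) and limma gave an adjusted p of 0.683.

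Mmrn1 showed the largest difference among the 10 genes. It encodes multimerin 1, a large alpha granule protein that binds coagulation factor V and that is made by megakaryocytes and also by endothelial cells. Its probe (chromosome 6, 60938883 to 60938942, mm9) read 3615 and 3213 on the Tie-2-Etv2 arrays, against 399 on the control array. Its level averaged 1.11 ± 0.69 (SD, n = 2) in Tie-2-Etv2 cells and was -2.38 in control cells. Both arrays lay far above the control, at 15.7-fold on replicate 1 and 7.99-fold on replicate 2. The difference of 3.48 ± 0.53 (SE) had an unadjusted p of 0.003 and an adjusted p of 0.235 by limma, and by the smaller of its differences Mmrn1 ranked 58 among all tested genes. Of the alternatives run, 2 brought it past the threshold, with an adjusted p of 2.72e-10 under normexp background correction and 0.0105 without a filter on dim probes in limma's test. Over the alternatives with both arrays its adjusted p ran up to 0.371. Limma adds prior degrees of freedom, the weight it gives to the spread pooled over all probes, to the 1 residual degree of freedom. They were infinite under normexp and 20.1 without the filter, against 2.92 in the processing of the report. The small adjusted p-values of those 2 settings thus lean on the pooled spread more than the processing of the report does. There too, the prior outweighed the 1 residual degree of freedom.

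Rab27b encodes a small GTPase that tethers granules for secretion and is needed for dense granules in mouse platelets. The probe that represents it (chromosome 18, 70143485 to 70143544, mm9) read 365 and 512 on the Tie-2-Etv2 arrays, against 254 on the control array. Its second probe, at 70138799 to 70138858, read 86.3 and 89.4 in Tie-2-Etv2 cells and 55.2 in control cells. Both probes were above the control on both arrays, by 1.31 and 1.0 for the brighter probe and by 1.44 and 0.68 for the other. The value on replicate 2 for the brighter probe was 0.998, just under 2-fold. In limma's test the difference of 1.16 ± 0.35 (SE) had an adjusted p of 0.393.

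Plek encodes pleckstrin, a protein kinase C substrate of platelets that other blood cells also make. It gave intensities of 5326 and 14048 on the Tie-2-Etv2 arrays, against 16133 on the control array (chromosome 11, 16871476 to 16871535, mm9). The levels were 2.15 and 2.75 in Tie-2-Etv2 cells and 2.96 in control cells, so the control was the highest of the 3. The difference of -0.51 ± 0.41 (SE) had limma's adjusted p at 0.83.

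Tubb1 encodes the beta tubulin of the band of microtubules that shapes a platelet. Its probe (chromosome 2, 174283277 to 174283336, mm9) read 2.23 on Tie-2-Etv2 replicate 1, where it was not well above background, and 15.1 on replicate 2, against 26.2 on the control array. Even the control value was only 1.90 times the lowest detected intensity of its array. The difference was -0.81 on replicate 2, and on replicate 1 the level was at least 1.44-fold lower than the control. The mean difference of -1.79 ± 0.91 (SE) had limma's adjusted p at 0.639. It was -0.01 with normexp background correction, whose offset of 50 exceeds these intensities and draws their differences toward 0.

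**Figure D2:**
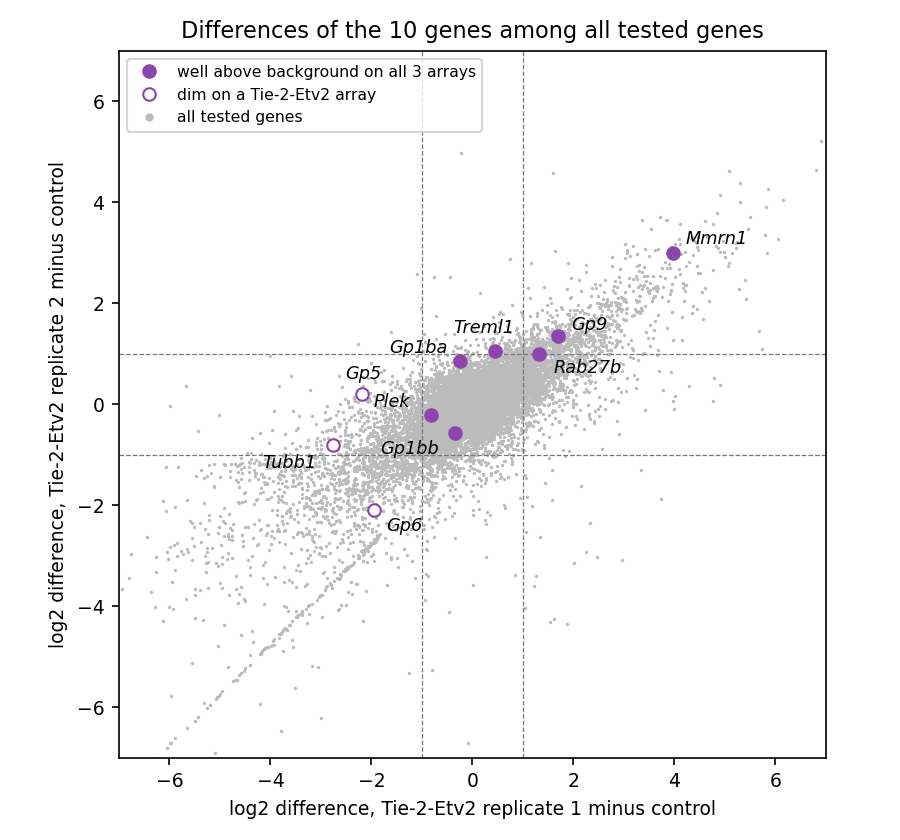
Log2 difference from the control on Tie-2-Etv2 replicate 1 (x axis) and replicate 2 (y axis) for all 19580 tested genes in grey and the 10 genes in purple, open where a Tie-2-Etv2 array was dim. Dashed lines mark 2-fold, and 11 genes fall outside the axes. Mmrn1 at 3.97 and 3.0 lies at the edge of the cloud, Gp9 at 1.70 and 1.35 inside the upper right corner and Gp5 at -2.18 and 0.21 off the diagonal.

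Agreement between the Tie-2-Etv2 arrays differed from gene to gene. Among the 7 genes detected on all 3 arrays, 6 had a gap between the Tie-2-Etv2 levels above 0.28, the median gap of all genes so detected. The widest were those of Gp1ba (1.09, wider than in 94.0% of those genes) and Mmrn1 (0.97, wider than in 92.2%), while Gp9 (0.35) and Rab27b (0.32) lay near the median. The gaps of Gp5, Gp6 and Tubb1 involve values below background and are not ranked. On replicate 2 Mmrn1, Gp9 and Treml1 were at least 2-fold above the control and Gp6 below it by its bound. On replicate 1 Mmrn1, Gp9 and Rab27b were at least 2-fold above the control and Gp5 below it by its bound, whereas the bounds of Gp6 and Tubb1 were 1.49-fold and 1.44-fold. Mmrn1 and Gp9 were thus at least 2-fold above the control on either array.

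Outside the 10 genes, megakaryocyte and platelet genes were found on both sides of the control. Of 34 such genes 31 were tested, and 9 were at least 2-fold higher and 7 at least 2-fold lower on both Tie-2-Etv2 arrays by their measured values. The shares over all tested genes, also for the lists below, were 3.92% and 6.64%. Over genes detected on all 3 arrays they were 2.91% and 3.44%. Clec1b, Esam, Slc35d3 and Nbeal2 are counted again in a list below, so the lists are not separate. Of the 7 lower genes Ppbp, Tbxas1 and P2ry12 were not well above background on replicate 1 and Trpc6 on neither Tie-2-Etv2 array. With dim values at the lowest detected level the counts were 9 and 6, Trpc6 being lost, and among the 27 genes detected on all 3 arrays they were 9 and 3. The median difference of the 31 was 0.55. Among those detected on all 3 arrays, Clec1b, the podoplanin receptor CLEC-2, differed by 3.82 on replicate 1 and 2.50 on replicate 2, and Itga2b, the integrin alpha chain CD41, by 2.12 and 2.47. Esam, an adhesion gene that endothelial cells also use, differed by 3.87 and 2.04.

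The granule chemokine genes lay below the control. Pf4 read 2003 and 4139 on the Tie-2-Etv2 arrays, against 12771 on the control array, a difference of -1.88 and -1.64. Ppbp read 4.43 and 38.9 in Tie-2-Etv2 cells, the first not well above background, and 152 in control cells. Vwf, the ligand of the Gp1ba product, was at -1.33 and -1.13. Endothelial cells also make it, and it was not among the endothelial genes counted below. F13a1, the gene of the coagulation factor XIII A chain, which macrophages also make, was at -2.16 and -1.16. Itgb3, the partner chain of Itga2b, was at 0.57 and 0.99. In limma's test 0 of the 31 genes passed the adjusted threshold, with Itga2b at an adjusted p of 0.235, Clec1b at 0.278 and Pf4 at 0.262.

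Transcription factor genes of the lineage were detected on every array, 16 of 16, and 3 were at least 2-fold higher on both Tie-2-Etv2 arrays and 0 lower. The 3 were Gata2 (2.38 and 1.68), Gfi1b (1.77 and 1.58) and Meis1 (1.64 and 1.15). Gata1, the main factor of megakaryocyte and red cell genes, was at -1.09 on replicate 1 and 0.82 on replicate 2, the arrays standing on opposite sides of the control. Nfe2, a factor needed for platelet release, was at 1.0 on replicate 1, just under 2-fold before rounding, and at 1.15 on replicate 2. Fli1, an ETS factor of platelet genes, was at 1.15 and 0.25. The adjusted p in limma's test was 0.289 for Gata2, 0.268 for Gfi1b and 0.986 for Gata1.

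Genes that act beside the 10 were counted next. Of 13 genes in collagen receptor and ITAM signalling, 2 were at least 2-fold higher, Lat (2.04 and 1.57), an adaptor of the pathway, and Clec1b. At least 2-fold lower were 0. Fcer1g, the signalling chain that glycoprotein VI needs, was at -0.41 and -0.55, and Syk, the kinase it recruits, at 0.10 and 0.14. Btk, a kinase of the same pathway, was at 0.77 and 0.72. Of 19 granule and secretion genes, 5 were at least 2-fold higher and 0 lower by measured values. One of the 5, Sytl2, was not well above background on the control array, with a bound of 1.41-fold on replicate 2, which leaves 4 of the 18 genes detected on all 3 arrays. Slc35d3 (2.29 and 1.92), needed for platelet dense granules in mice, Unc13d (2.0 and 1.73), a Rab27 effector, and Sytl4 (2.66 and 1.07) were among them. Rab27a, the closest relative of Rab27b, was at 0.81 and 0.99.

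Relatives of the 10 genes were found on both sides of the control, with 3 of 13 at least 2-fold higher and 3 lower. Mmrn2, the endothelial relative of Mmrn1, differed by 3.53 on replicate 1 and 1.16 on replicate 2. The tubulin genes Tubb2a (-2.95 and -1.82) and Tubb2b (-2.50 and -1.67) were lower, while Tubb5 was at -0.02 and -0.07 and Tubb6 at 0.07 and -0.05. The tubulin genes are related in sequence, and how well their probes tell them apart was not tested. Trem3 was at 1.94 and 2.11 and Trem2, a macrophage receptor gene, at -6.77 and -2.96. Of 13 cytoskeleton genes 1 was 2-fold higher, Tuba8 (2.62 and 2.46), an alpha tubulin gene, and 1 lower, Myl9 (-3.07 and -1.72), a myosin light chain gene. Tpm4, a tropomyosin gene of platelets, was at -0.81 and -1.0.

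Markers of other cells that the sort could hold differed between the groups, and their part in the results above was not tested. Of 13 endothelial genes 10 were at least 2-fold higher on both Tie-2-Etv2 arrays. The summed level of the 13, in multiples of the array's 75th percentile, was 51.9 and 25.7 in Tie-2-Etv2 cells and 10.7 in control cells. Such sums follow the brightest probes of a list more than its other genes. The endothelial sum was mostly Egfl7, at log2 levels of 5.39 and 4.42 in Tie-2-Etv2 cells and 3.06 in control cells. Cdh5 differed by 4.46 and 2.60 and Tek, the gene of the Tie-2 receptor, by 3.04 and 2.02. The endothelial genes Sox17, Sox18 and Flt4 were not well above background on the control array. Macrophage genes were at least 2-fold lower in 12 of 13 cases, with sums of 8.34 and 19.8 in Tie-2-Etv2 cells and 76.0 in control cells. The remaining gene, Itgam, was higher on both arrays (1.24 and 0.84). Timd4 was not above background on either Tie-2-Etv2 array and Mertk not on replicate 1. Adgre1 (-6.13 and -4.28), Mrc1 (-5.28 and -3.32) and C1qc (-5.55 and -3.07) had the largest smaller difference of the pair among macrophage genes detected on all 3 arrays. Of 11 erythroid genes 8 were at least 2-fold lower (sums of 8.58 and 12.4 in Tie-2-Etv2 cells and 43.8 in control cells). Rhd was not above background on either Tie-2-Etv2 array and Klf1 not on replicate 1. The embryonic globin genes Hbb-y (-2.35 and -1.87) and Hba-x (-2.44 and -1.99) and the alpha globin gene Hba-a1 (-2.30 and -1.89), which has a near-identical copy, were among the 8. Of 9 visceral endoderm genes 9 were lower (1.80 and 14.4 in Tie-2-Etv2 cells and 34.0 in control cells), and Foxa2 was not above background on replicate 1. Afp (-4.07 and -1.25), Ttr (-4.64 and -1.33) and Amn (-4.58 and -1.27) were lower chiefly on replicate 1. Among 11 granulocyte and mast cell genes 5 were at least 2-fold higher on both Tie-2-Etv2 arrays (sums of 52.9 and 54.4 in Tie-2-Etv2 cells and 20.5 in control cells). That sum was mostly Mpo, at log2 levels of 5.22 and 5.46 in Tie-2-Etv2 cells and 4.16 in control cells. Ctsg, Ltf and Camp were not above background on the control array. S100a8 differed by 5.31 and 4.37 and S100a9 by 4.61 and 3.63.

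**Figure D3:**
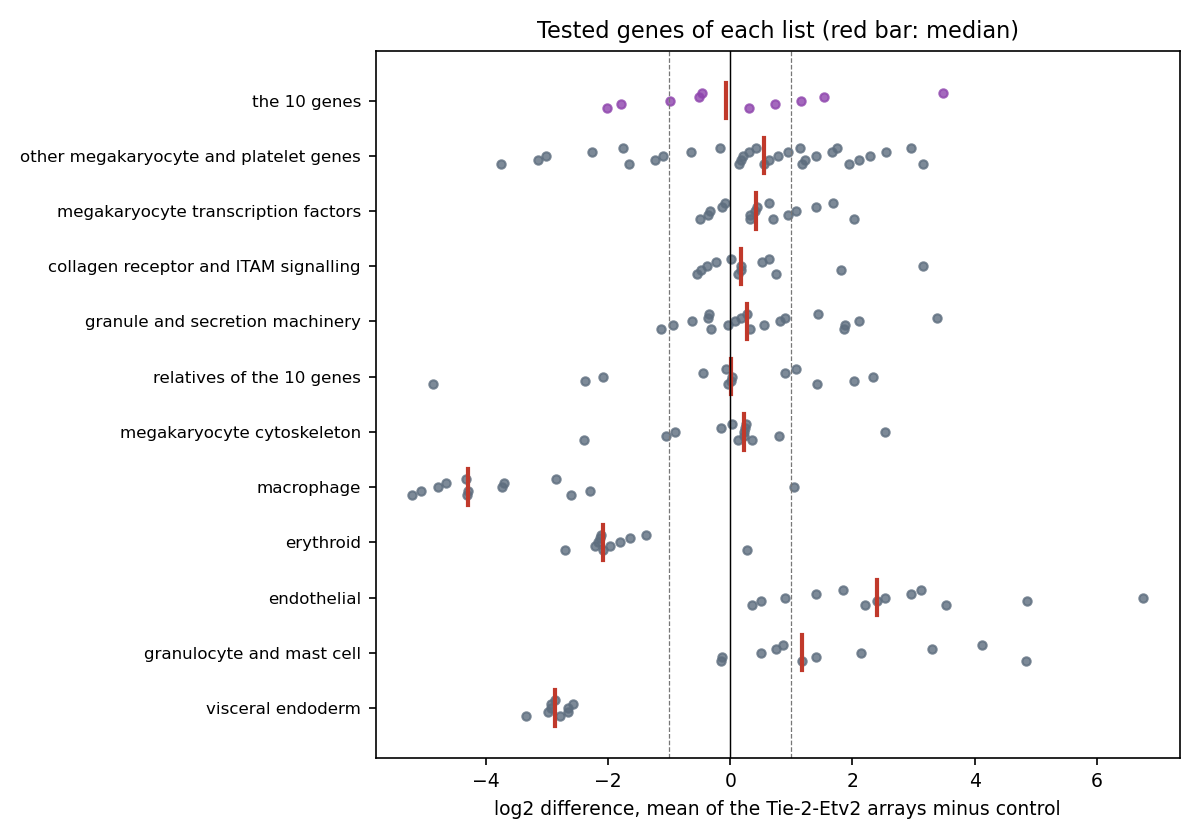
Log2 difference of each tested gene (x axis, mean of the Tie-2-Etv2 arrays minus control), with each gene list on a line of its own and the list median as a red bar. Dashed lines mark 2-fold. The 10 genes centre on -0.07 and spread from -2.02 to 3.48, whereas endothelial genes centre on 2.40 and macrophage genes on -4.30.

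Mmrn1 was the gene of the set with the largest smaller difference among those detected on all 3 arrays, and the genes nearest to it in the pair of differences were sought among all genes detected on all 3 arrays. The 5 nearest were Pnp2, Tdrd5, Cpa3, Fgr and the array transcript NAP062715-1, at distances of 0.0947 to 0.311 log2 units. Cpa3, the mast cell carboxypeptidase gene, differed by 3.91 and 2.71, and Fgr, a Src family kinase gene of myeloid cells, by 3.67 and 3.07. The likeness rests on 2 differences that share the control array and describes nothing beyond them.

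**Figure D4:**
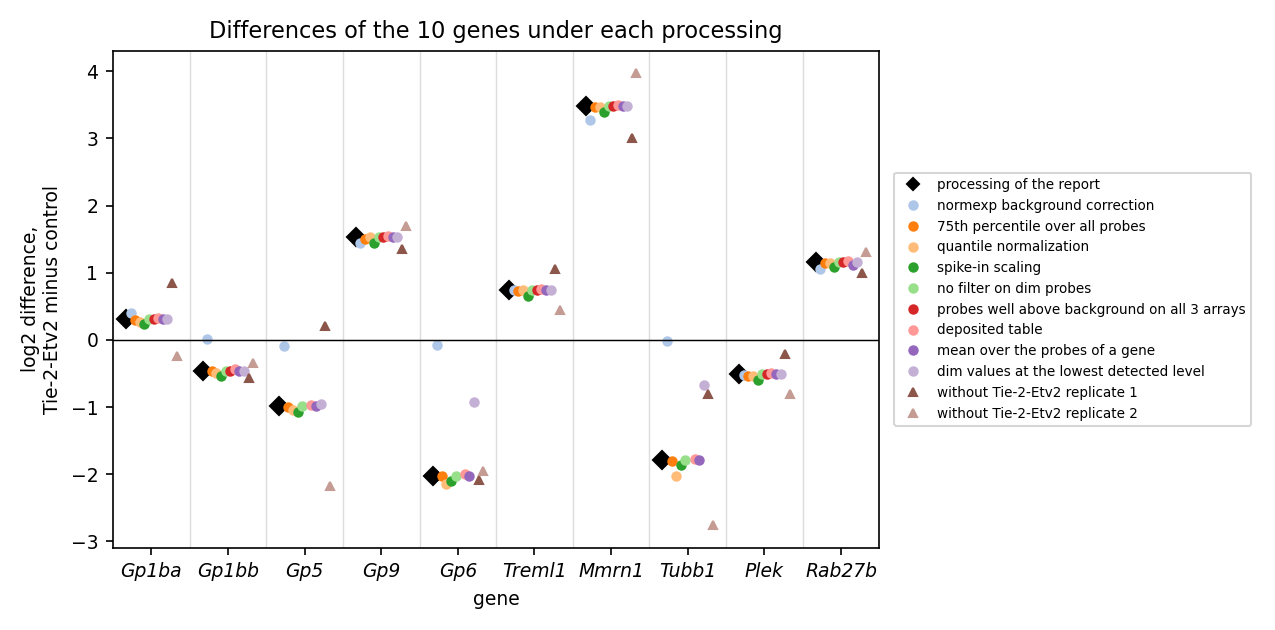
Log2 difference of each of the 10 genes (y axis, Tie-2-Etv2 minus control) under the processing of the report (black diamonds), 9 other processings (circles) and with either Tie-2-Etv2 array left out (triangles). Mmrn1, Gp9, Treml1 and Rab27b stay above 0 throughout, while the circles of Gp6 and Tubb1 reach -0.07 and -0.01 with normexp background correction.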

How the data were processed

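Intensity values were deposited by the authors as 1-colour Agilent Feature Extraction files (version 10.7 per the submitters' processing notes, 10.7.3.1 per the file headers; array design 028005), background-subtracted with dim values replaced by a surrogate and not scaled between arrays. A deposited table of log2 values matched them apart from 1 constant per array (100% of probes within 0.01), centred per probe, and served as an alternative. Probe coordinates are on mm9 per the file headers.

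Control spots and outlier spots (168 to 174 per array) were left out, log2 processed signals of replicate spots averaged, and each array's 75th percentile over the 22764 probes that every array detected well above background subtracted. A probe was tested if the control array, or both Tie-2-Etv2 arrays, had it well above background (26214 probes), and a gene was represented by its brightest tested probe. Names were updated through RefSeq (GRCm38.p6): accessions named 26582 probes, symbols 2602 and synonyms 492, and 26005 kept the file's name. Differences were tested with limma 3.58.1 (lmFit, then eBayes; R 4.3.3), two-sided, threshold 0.05. The 1 residual degree of freedom is the spread of the Tie-2-Etv2 arrays, which the single control is taken to share. With 1 array against 2, an exact permutation p cannot be under 0.333. The fit was tested on simulated data.

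A dim group's bound used, per array, the higher of the probe's value and the lowest detected value. It allows for no measurement error, so "at least" holds only for the values as read. Members, gene lists and tests were chosen with earlier results of these data known. All 10 genes were named, and 3 per list by the smaller of their differences where none passed. Other genes named, including Pf4, Ppbp, Vwf, F13a1, Itgb3, Gata1, Nfe2, Fli1, Fcer1g, Syk, Rab27a, Mmrn2, Tubb2b, Tubb5 and Tubb6, were chosen after their values were seen. Alternatives were normexp with an offset of 50, other scalings, other filters, the deposited table, the mean over probes, dim values at the lowest detected level and leaving out either Tie-2-Etv2 array.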

Additional observations from a re-analysis of the deposited data

How the results depend on the processing

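No paired analysis was possible because the control group has 1 sample. Mmrn1, Gp9, Treml1 and Rab27b stayed higher, and Gp6, Tubb1 and Plek lower, under all alternatives run for them. Of the 10 genes 3 changed sign: Gp1ba ranged from -0.24 (without replicate 2) to 0.85 and Gp5 from -2.18 to 0.21 (without replicate 1) with 1 array left out, and Gp1bb was at 0.01 with normexp. The number of genes passing the test, 0, became 614 with normexp and 440 when dim probes were kept, and the cause was not tested. The 2067 genes 2-fold apart became 803 with normexp, 1095 when detection on all 3 arrays was required, and 2529 to 3978 with 1 Tie-2-Etv2 array left out. The count of the 10 genes 2-fold apart, 3, was 2, without Gp6, with normexp, with detection on all 3 arrays and with dim values at the lowest detected level, 4, with Rab27b, in 3 other settings, and 4 to 6 with 1 array left out. The 6, without replicate 2, include Gp6 and Tubb1 by values below background. The count of other megakaryocyte genes, 16, was 12 with normexp and with detection on all 3 arrays, 15 to 17 in the other settings, and 16 to 21 with 1 array left out. The median of the 10 genes, -0.07, was 0.21 with normexp, 0.74 with the 7 genes detected on all 3 arrays, and -0.29 to 0.53 with 1 array left out. Gp6, Gp5 and Tubb1 read under 2 times the lowest detected intensity on at least 1 array, and their differences with normexp were -0.07, -0.09 and -0.01. The normexp offset of 50 draws the differences of dim probes toward 0, so these values are no check of direction.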
